A study of Mus musculus with 6 samples.

Results

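The Sox genes encode transcription factors with an SRY-type HMG box. The 10 genes described here are Sox2, Sox4, Sox8, Sox9, Sox10, Sox11, Sox12, Sox17, Sox18 and Sox21, taken by gene symbol from the 21937 genes measured in each of 6 chromatin libraries. They were selected on gene family and on their H3K4, H3K27 and input read counts in all these libraries, so every value below is a description of the genes and none is a test. They were ordered by the established groups of the family, with 2 SoxB genes (Sox2, Sox21), 3 SoxC genes (Sox4, Sox11, Sox12), 3 SoxE genes (Sox8, Sox9, Sox10) and 2 SoxF genes (Sox17, Sox18). A further 9 Sox genes of the files (Sox1, Sox3, Sox5, Sox6, Sox7, Sox13, Sox14, Sox15, Sox30) were used for comparison.

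The study profiled histone marks by chromatin immunoprecipitation and sequencing (ChIP-seq) in 2 mouse cell lines, mK3 and mK4, with the question of what histone methylation does in deciding the fate of nephron progenitors. Both are immortalized lines from the metanephros, the embryonic kidney, at stage E11.5, and both carry the strain label CD1. For each line there was 1 H3K4 library, 1 H3K27 library, each named after its antibody, and 1 of input DNA, which is chromatin sequenced without an antibody. Whether either line is a single clone, and how it was immortalized, is not given in the sources used here. H3K4 methylation is generally associated with active promoters, and H3K27 trimethylation with genes silenced by Polycomb complexes. Whether the antibodies see mono-, di- or trimethylated lysine is not in the labels. The H3K4 antibody is also listed with the Abcam catalogue number ab8898, a product sold against trimethylated lysine of H3K9, so name and number disagree, and "H3K4" below means the libraries labelled H3K4.

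The 6 libraries held between 311409 and 714011 reads over exons, with a median of 10 to 24 reads per gene. With 1 library per group there is no replicate, so no difference below has been set against the spread between cultures. The intervals are exact Clopper-Pearson 95% intervals on the ratio of 2 read shares, and they cover counting error only. A gene was called marked when its scaled count plus 5 was at least 2-fold that of its own line's input. Because the counts cover exons, signal upstream of the first exon is not in them. In bulk chromatin a mark on more cells cannot be told apart from more of the mark per cell. The lines' cell type could not be checked against marker genes, because chromatin reads over exons are not RNA levels.

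Sox proteins bind the minor groove of DNA through the HMG box, bend it, and usually act with a partner factor. SoxB1 factors such as Sox2 keep stem cells and neural progenitors undifferentiated, SoxC factors act in neuronal and mesenchymal progenitors, SoxE factors in neural crest, glia and cartilage, and SoxF factors in endoderm and vessels. In the embryonic kidney, Sox8 and Sox9 act in the branching ureteric bud downstream of the receptor Ret, and Sox4, Sox11 and Sox12 are active in nephron formation. Many developmental regulators with CpG-rich promoters, Sox genes among them, carry H3K27 trimethylation in cells that do not use them.

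Promoter sequences from RefSeq (build GRCm38.p6) were matched for 6 of the 10 genes, namely Sox2, Sox21, Sox4, Sox11, Sox12 and Sox8, and were not matched for Sox9, Sox10, Sox17 and Sox18. The 250 bases before the annotated start are shown for the 3 SoxC genes, whose marks went different ways in the lines, and for Sox21, which had H3K27 over input in both lines. They are written 5′ to 3′ on the gene's strand with each CG dinucleotide in capitals. These coordinates belong to another build than the mm9 counts and were not used to place any read.
Sox4, chr13:28953700-28953949, minus strand: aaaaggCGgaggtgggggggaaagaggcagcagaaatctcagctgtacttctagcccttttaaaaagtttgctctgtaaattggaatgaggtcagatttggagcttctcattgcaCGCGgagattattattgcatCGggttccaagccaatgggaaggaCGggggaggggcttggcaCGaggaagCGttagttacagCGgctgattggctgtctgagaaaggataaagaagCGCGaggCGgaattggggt
Sox11, chr12:27342719-27342968, minus strand: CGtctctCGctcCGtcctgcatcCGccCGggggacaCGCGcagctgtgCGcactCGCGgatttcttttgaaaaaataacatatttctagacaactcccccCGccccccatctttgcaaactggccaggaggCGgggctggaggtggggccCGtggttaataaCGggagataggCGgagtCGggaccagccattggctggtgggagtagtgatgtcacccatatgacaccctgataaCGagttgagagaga
Sox12, chr2:152398047-152398296, minus strand: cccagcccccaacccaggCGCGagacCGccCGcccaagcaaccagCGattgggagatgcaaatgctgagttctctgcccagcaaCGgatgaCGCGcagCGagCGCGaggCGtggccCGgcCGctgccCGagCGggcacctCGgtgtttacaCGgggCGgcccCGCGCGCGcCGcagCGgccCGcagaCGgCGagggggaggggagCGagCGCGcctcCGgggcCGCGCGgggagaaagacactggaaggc
Sox21, chr14:118237031-118237280, minus strand: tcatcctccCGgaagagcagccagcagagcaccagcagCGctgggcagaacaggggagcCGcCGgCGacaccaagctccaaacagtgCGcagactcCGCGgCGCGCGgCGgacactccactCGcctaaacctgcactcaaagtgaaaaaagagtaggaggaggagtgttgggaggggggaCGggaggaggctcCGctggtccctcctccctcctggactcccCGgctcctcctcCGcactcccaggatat

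The Sox12 window was the richest of the 6 in CG, with 35 dinucleotides, a number that 2.97% of all 32851 windows of this length reached. The Sox4 window was the poorest, with 11, reached by 35.6% of windows. Sox11 and Sox21 had 17 each, Sox8 had 18 and Sox2 had 27, against a median of 6 over all windows. CCAAT, on either strand, was found in 4 of the 6 windows (4 times in Sox4 and 1 time each in Sox2, Sox11 and Sox12) and in 33.8% of all windows. ACAAT, 1 form of the core sequence that Sox factors bind, was in 0 of the 6 on either strand and in 27.7% of all windows. Other forms of that sequence were not counted. A match is a string of letters in this window and was not tied to any read, since the counts lie in exons.

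In mK3 H3K27 called more of the Sox genes than H3K4, as it did over all genes, and each mark called 3 genes in mK4. H3K27 marked 4 of the 10 genes in mK3 (Sox2, Sox21, Sox11 and Sox18), where it marked 10.3% of all genes, and 3 in mK4 (Sox2, Sox21 and Sox18), where it marked 9.06%. H3K4 marked 2 genes in mK3 (Sox2 and Sox4), where it marked 4.94% of all genes, and 3 in mK4 (Sox4, Sox11 and Sox9), where it marked 3.69%. Sox4 was thus the only one of the 10 marked by H3K4 in both lines. On the log2 scale of scaled count plus 5, the 10 genes had a median H3K27 ratio to input of 0.75 in mK3 and 0.72 in mK4, and that of H3K4 was 0.22 and -0.07, with medians over all genes of 0.00 for all 4 ratios.

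**Figure D1:**
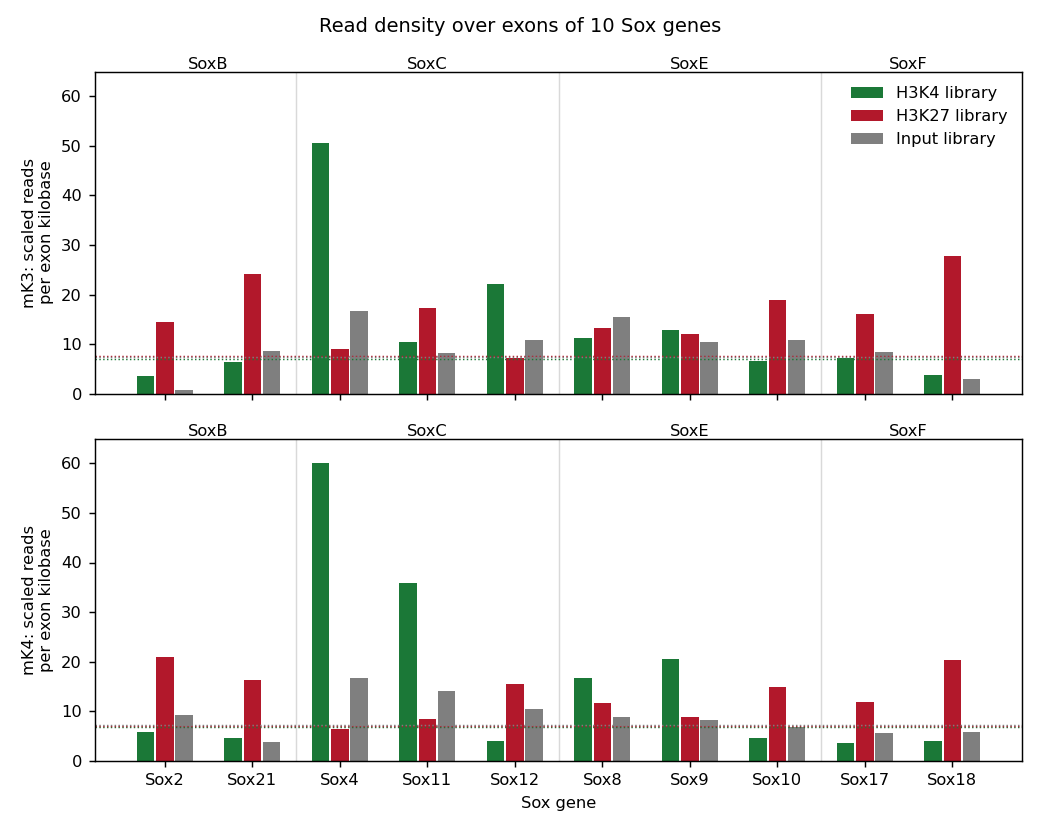
Bars give the reads of each library over the exons of each Sox gene, scaled to equal library totals and divided by exon length in kilobases, with mK3 above and mK4 below and 1 library per bar. Dotted lines are the median over all genes, between 6.72 and 7.70, and the tallest bars are H3K4 at Sox4, at 50.5 in mK3 and 60.2 in mK4.

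The SoxB genes carried H3K27 over H3K4 in both lines by nearly the same ratio. Sox2, a factor of pluripotent and neural progenitor cells, had, in mK3 and mK4 respectively, 10 and 20 H3K4 reads, 41 and 48 H3K27 reads, and 1 and 17 input reads. The H3K27 reads were the most numerous in each line, and the single mK3 input read sets every ratio to input there. The H3K27 share was 21.5-fold the input share in mK3 (3.65 to 871) and 2.27-fold in mK4 (1.28 to 4.21). At the median input density, Sox2's exon length of 2457 bases would hold 11.0 reads in mK3. Its H3K4 call in mK3 had an interval that includes 1 (5.23-fold, 0.744 to 227), and was lost when the inputs of both lines were pooled (log2 ratio of -0.42) or replaced by exon length (-0.69). The H3K27 call in mK3 remained with pooled inputs (log2 ratio of 1.15) and was lost with exon length as the background (0.76), and Sox2 dropped out where inputs under 10 reads were left out.

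The Sox2 input share itself was 13.7-fold higher in mK4 (2.15 to 572), the only input difference called among the 10 genes, where 7.26% of all genes were called higher and 6.2% lower. Chromosome 3 as a whole had a 1.84-fold higher input share in mK4, while the 10 neighbouring genes on each side of Sox2 summed to an input ratio of -0.14 on the log2 scale. The part of the input difference in the Sox2 ratios was not tested. Within each line the input drops out when the marks are set against each other, and there H3K27 was 4.12-fold H3K4 in mK3 (2.03 to 9.21) and 3.56-fold in mK4 (2.07 to 6.33). Sox2 lies within the span of the noncoding gene Sox2ot, and DNA reads carry no strand that would assign a shared base to one of them. Sox2ot had 28 and 27 H3K27 reads, 15 and 15 H3K4 reads and 4 and 19 input reads, so its mK3 input was low as well.

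Sox21, which counteracts SoxB1 factors during neuronal differentiation, had, in mK3 and mK4 respectively, 28 and 24 H3K4 reads, 106 and 58 H3K27 reads, and 20 and 11 input reads. H3K27 was the highest of its 3 libraries in each line. It was 2.78-fold input in mK3 (1.71 to 4.74) and 4.24-fold in mK4 (2.20 to 8.95). H3K27 was 3.80-fold H3K4 in mK3 (2.49 to 5.99) and 3.59-fold in mK4 (2.19 to 6.03), close to the ratios at Sox2. The H3K27 share was 0.674-fold in mK4 (0.481 to 0.937), and the input share was 0.443-fold (0.192 to 0.970). Chromosome 14 as a whole had 0.641-fold the H3K27 share and 0.644-fold the input share in mK4. Sox21 was thus close to its chromosome in H3K27. Its neighbouring genes, taken as for Sox2, summed to an input ratio of -0.17 on the log2 scale. Sox21 itself had an input ratio of -0.95 on the log2 scale with pseudocount. The part of the chromosome in the Sox21 differences was not tested.

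The SoxC genes, which encode closely related proteins, had 3 different patterns. Sox4 carried H3K4 with little H3K27 in both lines, Sox11 carried more H3K27 than H3K4 in mK3 and the opposite in mK4, and Sox12 carried more H3K4 in mK3 and more H3K27 in mK4. For Sox4, the H3K4 reads numbered 173 in mK3 and 247 in mK4, the H3K27 reads 31 and 18, and the input reads 30 and 37. H3K4 was 3.02-fold input in mK3 (2.04 to 4.61) and 3.62-fold in mK4 (2.55 to 5.26), and H3K27 lay under input in both, at 0.543-fold (0.318 to 0.928) and 0.391-fold (0.209 to 0.704). Per exon kilobase its H3K27 density was 9.09 and 6.50, near the medians over all genes of 7.70 and 7.03, so it was not low against exon length. Its H3K4 density over exons was above that of 99.4% of genes in either line, and its input density was also high, above 92.7% and 92.9%. H3K4 was 5.56-fold H3K27 in mK3 (3.78 to 8.43) and 9.25-fold in mK4 (5.73 to 15.9). On the log2 scale with pseudocount, this H3K4 excess of Sox4 ranked 32 in mK3 and 1 in mK4 among 21937 genes. Between the lines, both marks and the input of Sox4 had intervals that include 1.

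Sox11, a factor of migrating and differentiating neuronal and mesenchymal cells, had, in mK3 and mK4 respectively, 103 and 422 H3K4 reads, 168 and 66 H3K27 reads, and 42 and 89 input reads. In mK3 H3K27 was the highest library, and in mK4 H3K4 was. H3K4 was 3.42-fold higher in mK4 (2.75 to 4.28), and H3K27 was 2.07-fold higher in mK3 (1.55 to 2.79). The input was also 1.71-fold higher in mK4 (1.17 to 2.53). With each line's own input as the base, H3K4 over input was 2.00-fold higher in mK4 (1.27 to 3.12), and H3K27 over input was 3.51-fold higher in mK3 (2.16 to 5.77). Both differences thus kept their direction with the input taken into account. In mK3 H3K27 was 2.10-fold input (1.49 to 3.02) and in mK4 0.596-fold (0.427 to 0.829), on opposite sides of 1, and H3K4 was 1.28-fold (0.888 to 1.88) and 2.57-fold (2.04 to 3.27). The mK3 call for H3K27 rests near the line, with a log2 ratio of 1.02 that was 0.57 with pooled inputs and 0.97 with a pseudocount of 10. Against exon length, the H3K27 density of 8.33 per kilobase in mK4 was near the median over all genes, and that of 17.2 in mK3 was above 94.9% of genes.

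Sox12, the third SoxC gene, had, in mK3 and mK4 respectively, 114 and 25 H3K4 reads, 37 and 64 H3K27 reads, and 29 and 35 input reads. H3K4 was the highest library in mK3 and the lowest in mK4. Its H3K4 share was 5.47-fold higher in mK3 (3.52 to 8.80), its H3K27 share was 2.13-fold higher in mK4 (1.40 to 3.29), and its input was 0.972-fold (0.577 to 1.65). The H3K4 difference had a log2 value of -2.17 with pseudocount and ranked 11 from the bottom among 21937 genes. H3K4 was 2.06-fold input in mK3 (1.36 to 3.21) and 0.387-fold in mK4 (0.222 to 0.665). With the pseudocount its log2 ratio in mK3 was 0.97, just under the 2-fold line, so Sox12 was not called marked in either line and is not among the H3K4 calls between the lines. Chromosome 2 as a whole differed between the lines by 1.03-fold to 1.05-fold in the 3 kinds of library.

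**Figure D2:**
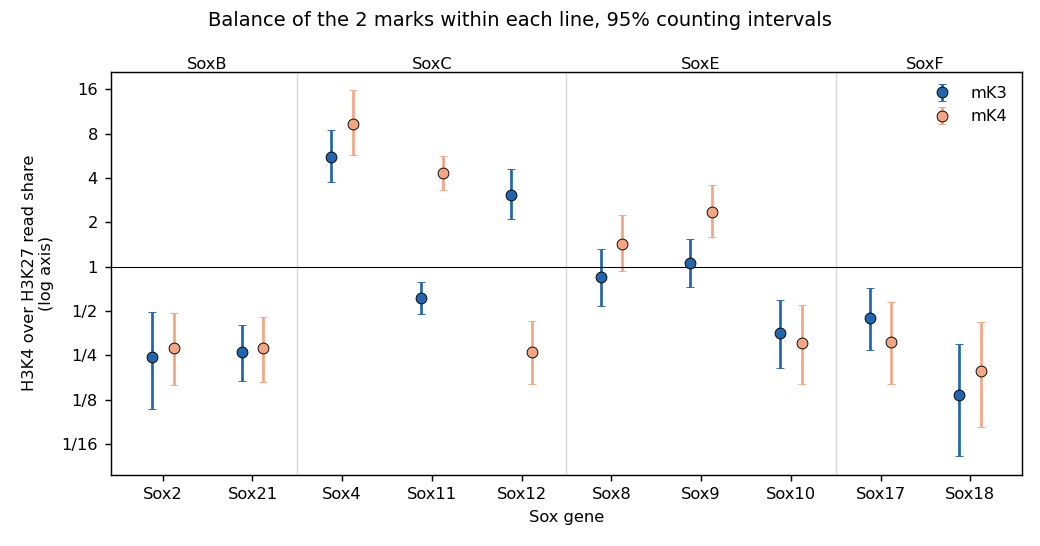
Points give the H3K4 read share over the H3K27 read share of each gene within mK3 and within mK4, on a log axis, with 95% counting intervals. Sox11 moves from 0.611 to 4.31 and Sox12 from 3.07 to 0.263, while the SoxB and SoxF genes lie between 0.134 and 0.447 in both lines.

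The ratio of H3K4 to H3K27 within a line needs no input, and copy number drops out of it, since both libraries share the cells' genome. This measure was chosen after the values were seen. H3K27 was at least 2-fold H3K4, on the scale with pseudocount, at 5 of the 10 genes in mK3 (Sox2, Sox21, Sox10, Sox17 and Sox18), against 11.8% of all genes, and at 6 in mK4 (the same 5 and Sox12), against 10.4%. H3K4 was at least 2-fold H3K27 at 2 genes in mK3 (Sox4 and Sox12), against 8.36% of all genes, and at 3 in mK4 (Sox4, Sox11 and Sox9), against 9.32%. So only Sox8 lay within 2-fold in both lines.

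Between the lines, the balance of Sox11 was 7.03-fold further toward H3K4 in mK4 (4.86 to 10.3), and the H3K4 to H3K27 ratio of Sox12 was 0.0867-fold that in mK3 (0.0453 to 0.161). On the log2 scale with pseudocount each ranked 3 in its direction among 21937 genes, Sox11 at -2.71 and Sox12 at 3.15, where a positive value is a shift toward H3K27 in mK4. Sox9 was 2.21-fold further toward H3K4 in mK4 (1.27 to 3.87), and the intervals of the other 7 genes include 1. Past 2-fold on the scale with pseudocount were Sox12 toward H3K27 in mK4, as for 4.45% of all genes, and Sox11 and Sox9 toward H3K4, as for 6.27%. Genes marked by both antibodies numbered 1 of 10 in mK3 (Sox2, by way of its single input read), against 1.39% of all genes, and 0 in mK4, against 0.78%.

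Among the SoxE genes, Sox8 and Sox9 had more H3K4 in mK4 than in mK3, and Sox10 had more H3K27 than H3K4 in both lines. Sox9, needed for cartilage, testis and ureteric tip cells, had, in mK3 and mK4 respectively, 62 and 119 H3K4 reads, 58 and 34 H3K27 reads, and 26 and 26 input reads. The H3K4 library of mK4 was the highest of the 6. H3K4 was 1.25-fold input in mK3 (0.777 to 2.06) and 2.48-fold in mK4 (1.61 to 3.95), while H3K27 was within counting error of input in both, at 1.17-fold (0.726 to 1.94) and 1.05-fold (0.612 to 1.82). The H3K4 share of Sox9 was 1.60-fold higher in mK4 (1.17 to 2.21), short of the 2-fold line.

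Sox8, which overlaps in function with Sox9 in kidney branching, had, in mK3 and mK4 respectively, 39 and 70 H3K4 reads, 46 and 33 H3K27 reads, and 28 and 20 input reads. In mK4 H3K4 was the highest library, as at Sox9, and in mK3 the input was, once scaled. H3K4 was 0.729-fold input in mK3 (0.437 to 1.23) and 1.90-fold in mK4 (1.14 to 3.29). The difference between these ratios was 2.59-fold (1.23 to 5.54). The input share, which enters this difference, was 0.575-fold in mK4 with an interval that includes 1 (0.307 to 1.06), and its part was not tested. With exon length as the background the mK3 ratio of Sox8 turned from -0.41 to 0.58 on the log2 scale. The H3K4 share alone was 1.50-fold higher in mK4 with an interval that includes 1 (0.998 to 2.27).

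Sox10, a regulator of neural crest and glial cells, had, in mK3 and mK4 respectively, 21 and 17 H3K4 reads, 59 and 38 H3K27 reads, and 18 and 14 input reads. H3K27 was the highest library in each line and H3K4 was near input. H3K27 was 1.72-fold input in mK3 (1.001 to 3.10) and 2.18-fold in mK4 (1.16 to 4.36), with log2 ratios of 0.69 and 0.95 on the scale with pseudocount, both under the line for a call. H3K27 was 2.82-fold H3K4 in mK3 (1.69 to 4.89) and 3.32-fold in mK4 (1.83 to 6.27). Sox10 was in this respect nearer to the SoxB genes than to Sox8 and Sox9, whose H3K27 was 1.18-fold and 0.939-fold H3K4 in mK3 and 0.700-fold and 0.424-fold in mK4.

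The SoxF genes, which specify endoderm and endothelium, had H3K27 above H3K4 in both lines. Sox17 had, in mK3 and mK4 respectively, 26 and 16 H3K4 reads, 58 and 35 H3K27 reads, and 16 and 13 input reads. Its H3K27 was 1.90-fold input in mK3 (1.08 to 3.55) and 2.16-fold in mK4 (1.12 to 4.46), with log2 ratios of 0.82 and 0.93 that were under the line for a call. Sox18 had, in mK3 and mK4 respectively, 7 and 9 H3K4 reads, 52 and 31 H3K27 reads, and 3 and 7 input reads. The H3K27 libraries of both genes were the highest in each line, and the Sox18 inputs were too small for a close estimate. H3K27 at Sox18 was 9.10-fold input in mK3 (2.95 to 45.6) and 3.56-fold in mK4 (1.54 to 9.58). Against H3K4 it was 7.46-fold in mK3 (3.37 to 19.5) and 5.11-fold in mK4 (2.38 to 12.2), the highest ratio of the 10 genes in each line. Per exon kilobase its H3K27 density was above that of 99.3% of genes in mK3 and 96.6% in mK4.

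**Figure D3:**
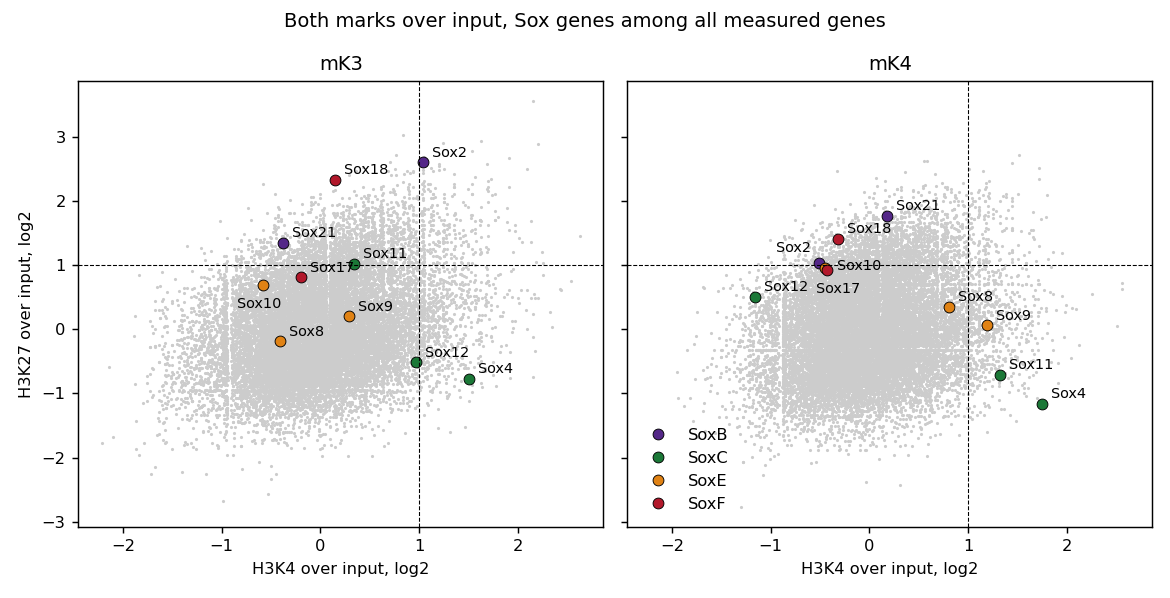
Each point is 1 gene, with its H3K4 over input on the horizontal and its H3K27 over input on the vertical axis, both as log2 of scaled count plus 5, for all genes in grey and the 10 Sox genes in the color of their group. Dashed lines are the 2-fold calls, and the SoxC genes lie toward the lower right except Sox11 in mK3 and Sox12 in mK4.

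Summed over their members, SoxB and SoxF had H3K27 more than 2-fold over input in both lines, and SoxC and SoxE stayed under 2-fold. Without Sox18 the SoxF fold in mK3 was also under 2-fold. By gene the groups overlapped, since in mK4 Sox10 of SoxE was 2.18-fold input and Sox17 of SoxF was 2.16-fold. The intervals on these sums cover counting error and not the spread between the genes of a group. SoxB reads gave 3.68-fold input for H3K27 in mK3 (2.32 to 6.12) and 3.04-fold in mK4 (1.99 to 4.79), and SoxF reads 3.04-fold (1.86 to 5.24) and 2.65-fold (1.59 to 4.62). SoxC gave 1.23-fold (0.968 to 1.57) and 0.739-fold (0.587 to 0.929), the latter turning to 1.42 with exon length in place of input as the background, and SoxE 1.19-fold (0.896 to 1.59) and 1.41-fold (1.01 to 1.97). The ratio of the SoxB to the SoxC fold was 2.99 in mK3 (1.76 to 5.27) and 4.11 in mK4 (2.52 to 6.86), and that of SoxF to SoxE was 2.55 (1.43 to 4.74) and 1.88 (1.01 to 3.61). SoxB and SoxF could not be separated from each other, with a ratio of 1.21 in mK3 (0.583 to 2.49) and 1.15 in mK4 (0.563 to 2.30).

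For H3K4 the order was different. SoxC gave 2.02-fold input in mK3 (1.62 to 2.54) and 2.34-fold in mK4 (1.96 to 2.79), and SoxE 0.886-fold (0.657 to 1.20) and 1.86-fold (1.39 to 2.52). SoxB and SoxF had folds between 0.677 and 0.947 whose intervals include 1. With exon length as the background SoxC gave 3.06 and 4.69, and SoxE gave 1.54 in mK3. SoxC was above SoxE by 2.28-fold in mK3 (1.55 to 3.33), but in mK4 the ratio of 1.25 (0.882 to 1.77) includes 1. The groups have 2 or 3 genes each and the sums weigh a gene by its reads, so the SoxC gene with the most reads differs between libraries. Without Sox4 the SoxC fold for H3K4 was 1.60 in mK3 and 1.95 in mK4, and without Sox11 the SoxC fold for H3K27 in mK3 was 0.605 in place of 1.23. Without Sox21 the SoxB fold for H3K27 in mK3 was 21.5, which is Sox2 alone with its 1 input read, and without Sox2 it was 2.78. Without Sox17 the SoxF fold for H3K27 in mK3 was 9.10, and without Sox18 it was 1.90, near the 1.72 of Sox10 in SoxE. Sox7, a SoxF gene outside the 10 and not in the sum, was 0.968-fold input for H3K27 in mK3.

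**Figure D4:**
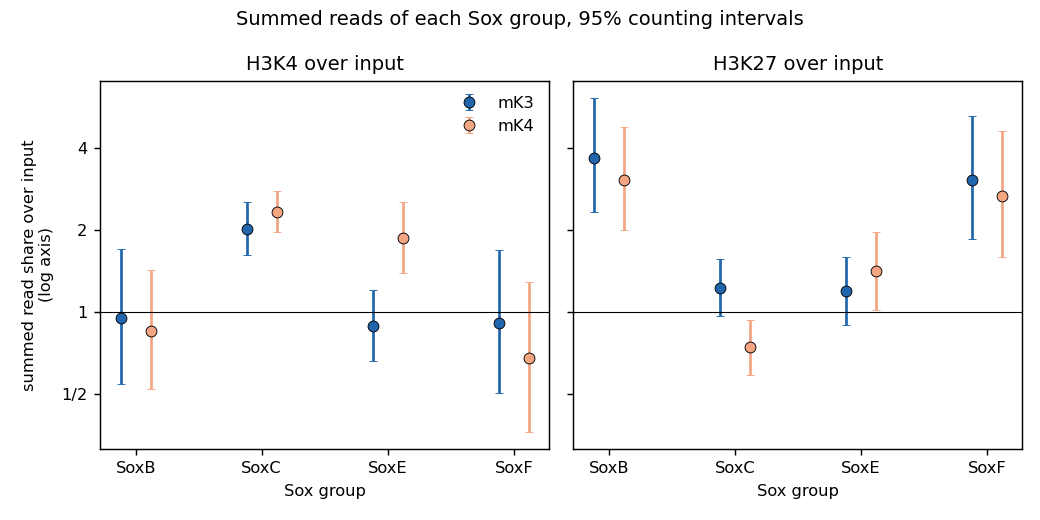
Points give the summed read share of each Sox group over its own line's input on a log axis, for H3K4 on the left and H3K27 on the right, with 95% counting intervals. SoxB and SoxF lie at or above 2.65 for H3K27 in both lines, and SoxC at or above 2.02 for H3K4.

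Set side by side between the lines, the H3K27 value was lower in mK4 at 8 of the 10 genes and higher at Sox2 and Sox12, with a median log2 difference of -0.39 against -0.06 over all genes. With that median, lower values were the more common direction over all genes too, and 5 of the other 9 Sox genes were lower. The input value was itself lower in mK4 at 7 of the 10 genes. With each line's own input as the base, the direction was mixed. H3K27 over input was then higher in mK4 at Sox21, Sox12, Sox8, Sox10 and Sox17, and lower at Sox2, Sox4, Sox11, Sox9 and Sox18. By interval, H3K27 was lower in mK4 at 2 genes (Sox21 and Sox11), as for 8.25% of all genes, and higher at 1 (Sox12), as for 7.56%. Over each line's own input, Sox11 and Sox12 kept these directions, at 0.285-fold (0.173 to 0.463) and 2.19-fold (1.10 to 4.35) in mK4. Sox21 did not, at 1.52-fold with an interval that includes 1 (0.643 to 3.78). H3K4 was higher in mK4 by interval at 2 genes (Sox11 and Sox9), as for 9.29% of all genes, and lower at 2 (Sox12 and Sox17), as for 10.7%. The Sox17 H3K4 share was 0.513-fold in mK4 (0.257 to 0.993), and over each line's own input it was 0.787-fold (0.270 to 2.29). For the input, the intervals lay above 1 at Sox2 and Sox11, as for 6.97% of all genes, and below 1 at Sox21, as for 7.59%. Input thus differed beyond counting error at 3 of the 10 genes, as many as H3K27.

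By the stricter rule, which asks for a marked call in at least 1 line and a 2-fold difference, H3K4 was higher in mK4 at 1 gene (Sox11), against 0.424% of all genes, and lower at 0, against 0.392%. H3K27 was higher at 0 genes, against 0.889%, and lower at 0, against 0.934%. Sox11 was just short of the H3K27 line, at -0.996 on the log2 scale (2.07-fold without pseudocount). With no marked call required, a setting chosen after seeing the data, H3K4 was higher in mK4 at Sox11, as for 4.51% of all genes, and lower at Sox12, as for 2.99%, while H3K27 was higher at 0 genes (3.73%) and lower at 0 (3.54%).

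**Figure D5:**
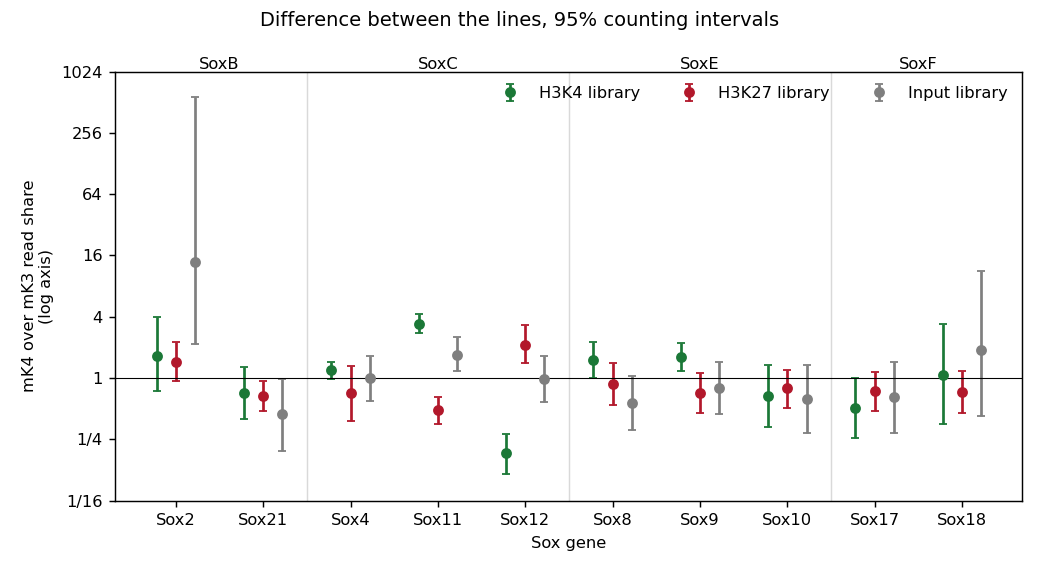
Points give the read share in mK4 over that in mK3 for each gene and kind of library, on a log axis, with 95% counting intervals. Sox11 and Sox12 have marks on opposite sides of 1, and the widest interval is the Sox2 input, from 2.15 to 572.

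The other 9 Sox genes were called more often for H3K27 than for H3K4, as all genes were. H3K27 marked 4 of the 9 in mK3 (Sox1, Sox3, Sox6 and Sox14), against 10.3% of all genes. In mK4 it marked 3 (Sox1, Sox7 and Sox14), against 9.06%. The Sox3 call rests on 9 H3K27 reads over 0 input reads, so no fold of read shares could be formed. The median log2 H3K27 ratio to input of the 9 genes was 0.87 in mK3 and 0.55 in mK4. H3K4 marked 0 of the 9 in either line, against 4.94% and 3.69% of all genes, so that 0 of 9 is near the background. Sox1, a SoxB1 factor of the neural plate, had 94 and 108 H3K27 reads, 13 and 34 H3K4 reads and 13 and 11 input reads, and its H3K27 was 3.80-fold input in mK3 (2.12 to 7.39) and 7.89-fold in mK4 (4.24 to 16.3). Sox14, a SoxB2 factor like Sox21, had 61 and 46 H3K27 reads, 13 and 11 H3K4 reads and 13 and 6 input reads. Both had more H3K27 than H3K4 in each line, as Sox2 and Sox21 did. That was not limited to SoxB genes. On the scale with pseudocount, H3K27 was above H3K4 at all 9 of these genes in mK3 and at 8 in mK4. Sox7, the remaining SoxF gene, had 59 and 42 H3K27 reads, 28 and 22 H3K4 reads and 32 and 9 input reads. Its H3K27 was 0.968-fold input in mK3 (0.619 to 1.54) and 3.75-fold in mK4 (1.80 to 8.76), a gap in which the input share was 4.41-fold higher in mK3 (2.06 to 10.5). Summed over the 9 genes, H3K4 was 0.371-fold H3K27 in mK3 (0.305 to 0.449) and 0.342-fold in mK4 (0.285 to 0.408), against 0.885-fold (0.791 to 0.991) and 1.54-fold (1.37 to 1.73) for the 10 genes. These sums weigh a gene by its reads. In mK4, Sox4 and Sox11 held 247 and 422 of the 969 H3K4 reads of the 10 genes. By gene, the median log2 ratio of H3K27 to H3K4 in mK3 was 0.85 for the 10 genes and 0.94 for the 9. In mK4 the medians were 1.38 and 0.97, so there the order by median was the reverse of that by sum.

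The genes nearest to Sox2 and Sox11 were found by Euclidean distance over the 4 log2 ratios of ChIP over input, among genes with a mean scaled count of at least 20. Nearest to Sox2 were Matn4, a cartilage matrix protein gene (distance 0.289), Paqr9 (0.450) and Chst4 (0.466), and all 3 had few mK3 input reads as Sox2 did (1, 4 and 1). Nearest to Sox11 were Pdgfb, a growth factor gene (0.517), and Lpcat2, a phospholipid enzyme gene (0.533). Pdgfb had 39 and 119 H3K4 reads with 85 and 22 H3K27 reads, and Lpcat2 had 26 and 64 H3K4 reads with 32 and 13 H3K27 reads. Both had more H3K4 reads and fewer H3K27 reads in mK4 than in mK3, as Sox11 had, which is what the distance selects.

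Lists of genes that act with or downstream of Sox factors were read against the same background shares, which for H3K27 are 10.3% (mK3) and 9.06% (mK4) of all genes. Of 9 measured neural crest and glial genes downstream of SoxE factors, H3K27 marked 3 in mK3 and 4 in mK4. Of 11 cartilage genes it marked 4 and 3, among them Acan, the aggrecan gene, with 68 and 86 H3K27 reads over 11 and 16 input reads. The H3K27 value of Col11a2 was higher in mK4 by 1.10 on the log2 scale, with 44 and 82 reads over 16 and 28 input reads. H3K4 marked 0 genes of either list in either line, which at 4.94% and 3.69% of all genes is near the background. Sox9 itself was within counting error of input for H3K27.

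Of 12 endothelial genes, H3K27 marked 5 in mK3 and 2 in mK4, and H3K4 marked 0 and 2. Dll4, a Notch ligand of arterial endothelium, had 69 H3K27 reads in mK3 and 16 in mK4 (log2 difference of -1.55), and Cdh5, the endothelial cadherin gene, had 65 and 20 (-1.22). Tek, an angiopoietin receptor, was marked by both antibodies in mK4. Of 10 neural and pluripotency genes that act with SoxB factors, H3K27 marked 4 in mK3, all of the Pou3f family, and 5 in mK4. Sall4, a stem cell factor, had 50 H3K27 reads in mK3 and 92 in mK4 (log2 difference of 1.10).

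Of 9 neuronal and mesenchymal genes linked to SoxC factors, H3K27 marked 2 in each line. Neurog2, a proneural factor, was marked in both with 74 and 127 reads and a log2 difference of 1.03, over 14 and 39 input reads. Neurod1, a later neuronal factor, had 49 and 15 (-1.18). Of 10 genes of the kidney Ret pathway, H3K27 marked 1 in each line (Gfra1 in mK3 and Ret in mK4) and H3K4 marked 1 in mK3 (Etv4, with 37 reads over 7 input reads) and 0 in mK4. These counts are near the shares over all genes, 10.3% and 9.06% for H3K27 and 4.94% and 3.69% for H3K4. The median H3K27 over input of this list was 0.30 and 0.02 on the log2 scale, and those of the other 5 lists lay between 0.47 and 1.02.

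Markers of kidney and other cell types were read in the same way, against 10.3% and 9.06% of all genes for H3K27 and 4.94% and 3.69% for H3K4. H3K27 marked 1 of 10 nephron progenitor genes in mK3 (Six2) and 0 in mK4, 1 of 8 ureteric bud genes in each line (Calb1 in mK3 and Ret in mK4), and 0 and 2 of 6 renal stroma genes (Tcf21 and Pdgfra in mK4). It marked 1 of 4 endothelial genes in each line, 0 and 1 of 4 neural crest genes and 1 and 0 of 4 blood genes. H3K4 marked 1 and 2 of the ureteric bud genes, with Emx2 in both lines, and it marked 0 and 1 of the stroma genes (Foxd1). Lists of 4 to 10 genes with 0 to 2 calls cannot be set apart from these shares. The counts describe chromatin and do not show which of the genes either line transcribes.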

How the data were processed

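The data are 6 ChIP-seq and input libraries, 1 per group. Per the file headers, each deposited table gives a read count, an RPKM value and an exon length for 22088 gene rows, and the deposited RPKM follows from the count, the exon length and the table's own total. The submitters' processing notes name the build mm9, while aligner, read length and handling of duplicates are not given in the sources used. The deposited counts were used, and RPKM only to check the totals. Of 137 symbols with several rows the row with the highest mean ChIP count was kept (151 rows dropped). Counts were scaled to a total of 513622, and ratios were formed on log2 of scaled count plus 5, a scale that understates differences at low counts. Folds printed with a range were formed from read shares, with no pseudocount. The interval for the difference between 2 such folds conditions on the 4 counts. No test was made. Named genes are the 10 genes, the other 9 Sox genes, the 3 genes nearest to Sox2 and to Sox11, and up to 2 genes per list and ratio with the largest absolute value past 2-fold; others named beside a count of 5 or fewer, and Sox2ot, were chosen after their values were seen. Of the genes this rule names, 3 are not reported here. The genes and lists were chosen with earlier results of these data known. Of the listed genes, 1 (Tfap2a) was not matched. Python 3.11.15, NumPy 2.4.6, pandas 2.3.3, SciPy 1.17.1 and Matplotlib 3.10.9 were used, and the ratio and interval steps were tested on simulated data.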

Additional observations from a re-analysis of the deposited data

Results flagged for a closer look

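At 2 of the 10 genes the ratio to input had intervals on opposite sides of 1 in the 2 lines. The share of all genes that meet this rule was not counted, so the number 2 has no background to be read against. H3K27 over input at Sox11 was 2.10-fold in mK3 and 0.596-fold in mK4. With exon length in place of input, its log2 ratio in mK4 turned from -0.71 to 0.23. H3K4 over input at Sox12 was 2.06-fold in mK3 and 0.387-fold in mK4. With 1 library per group the difference between the lines was not tested.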

How the results depend on the processing

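No paired analysis was possible because each group has 1 library and the labels carry no replicate numbers. The H3K27 calls changed from 4 to 2 in mK3 when inputs under 10 reads were left out, and from 3 to 5 in mK4 with a pseudocount of 1 or with ratios centred on genes of at least 20 scaled reads, an alternative chosen after seeing the data. In mK3 the H3K27 count stayed at 4 while genes changed, with Sox10 in place of Sox2 under exon length and Sox17 in place of Sox11 under pooled inputs, and a pseudocount of 10 lost Sox11 (3 calls) and, in mK4, Sox2 (2 calls). The H3K4 calls in mK3 changed from 2 to 1 with a pseudocount of 10, with pooled inputs and without inputs under 10 reads. Lower H3K4 in mK4 went from 0 to 1 gene with a pseudocount of 1, with exon length as background and with no marked call required (Sox12 each time), where the last was chosen after seeing the data, and to 1 (Sox2) when each gene's input ratio was subtracted. That subtraction also took higher H3K4 from 1 to 0 and lower H3K27 from 0 to 2 genes (Sox2 and Sox11), and a pseudocount of 1 took lower H3K27 to 1 (Sox11). With exon length in place of input, SoxC folds were 3.06 and 4.69 for H3K4 and 1.68 and 1.42 for H3K27 in mK3 and mK4, the last reversed from 0.739, and SoxE folds in mK3 were 1.54 for H3K4 and 1.86 for H3K27. The Sox2 H3K4 ratio in mK3 reversed to -0.69 with exon length and to -0.42 with pooled inputs. Leaving out 1 gene at a time gave ranges for SoxB in mK3 of 0.732 to 5.23 (H3K4) and 2.78 to 21.5 (H3K27), for SoxC of 1.60 to 2.55 and 1.95 to 2.88 (H3K4, mK3 and mK4) and 0.605 to 1.52 and 0.536 to 0.915 (H3K27), for SoxE H3K4 in mK4 of 1.39 to 2.23, and for SoxF H3K27 in mK3 of 1.90 to 9.10. Apart from the values and calls above, the cause of these changes was not tested. Depth limits the genes with few input reads most, namely Sox2 and Sox18 in mK3.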
